A study of Mus musculus with 4 samples.

Results

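Islets of Langerhans hold endocrine cells together with a minority of other cells, and the genes described here are markers of those other cells. They are 43 genes of 5 lineages, namely 12 endothelial, 8 mesenchymal, 13 macrophage, 6 lymphocyte and 4 Schwann cell markers, out of 22916 genes named on the array. A gene was included when a gene probe of the array mapped to its symbol through the accession the array files give, and all 43 genes were found, with 56 probes of the 56605 on the array. That mapping used no measured values, but the marker genes themselves were chosen with earlier results of these data known.

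The data are 4 one-color Agilent arrays, each with RNA of pancreatic islet cells from 60-week-old C57BL/6 mice, which the labels call male. 2 arrays carried RNA of cells given a scrambled peptide (replicates 1 and 2) and 2 carried RNA of cells given MOTS-c (replicates 2 and 3), a short peptide encoded in the ribosomal RNA region of mitochondrial DNA, each at 10 μM for 24 h. All 4 samples came from littermates with no genetic change named. The islets had been freed with collagenase, enriched on a density gradient, picked by hand and dispersed to single cells in medium with serum, so the non-endocrine cells on these arrays are those that stayed with the islets through these steps. The labels give 4 littermates and 2 samples per group, and they do not tie each array to an animal. The p-values therefore measure the spread between these arrays. The question was which of the non-endocrine lineages gave signal in this preparation, and whether their markers differed between MOTS-c and scrambled peptide.

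Endothelial cells line the dense capillary network of the islet, and pericytes and fibroblasts (the mesenchymal lineage here) surround those vessels and lay down matrix. Resident macrophages are the main immune cell of a healthy islet, lymphocytes are few unless there is autoimmune infiltration, and Schwann cells form a thin sheath of glia around the islet. Each lineage is known by genes that endocrine cells use little, such as VE-cadherin (Cdh5) for endothelium or CD45 (Ptprc) for leukocytes.

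The arrays themselves were alike. Between 61.6 and 65.0% of gene spots were well above background, 0 gene spots were saturated, and the correlations between arrays across probes lay between 0.990 and 0.995, the lowest of them with MOTS-c replicate 3. All 4 arrays lay on 1 slide. The labelled tissue was checked against 12 endocrine genes, of which 11 were well above background on at least 2 arrays and 10 on all 4, including both insulin genes, Gcg, Sst, Iapp and Pdx1. The probes went against the labelled sex. For Uty, Kdm5d, Ddx3y and Eif2s3y, genes of the Y chromosome with 7 probes in all, 0 of 28 readings were above background, while Xist, transcribed from the inactive X chromosome, was above background on all 4 arrays at 23.7 to 33.5 times its local background.

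Most of these markers were not above background. 17 of the 43 genes had a probe that stood well above background in at least 2 of 4 arrays, which is 39.5%, against 67.5% of all genes named on the array. On all 4 arrays it was 14 genes, against 64.6% of all named genes. With a looser flag of the scanner software, a signal positive and significant against local background, it was 30 genes, against 80.3% of all named genes. 3 genes passed on 1 array alone and 23 on none. The 33 probes that passed on none read between 0.674 and 1.78 times their local background. "Not above background" is a limit of these probes and this amount of RNA, and it does not say that a gene was not expressed. In such bulk RNA, fewer cells of a type and less RNA per cell cannot be told apart. Which cells the RNA of a given marker came from was not tested, for any lineage.

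The number of markers above background was 15 on each scrambled array, 16 on MOTS-c replicate 2 and 19 on MOTS-c replicate 3. MOTS-c replicate 3 was also the array with the most probes above background over the whole design, at 63.4% against 59.8 to 61.2% on the other arrays. The part of that difference in the marker counts was not tested.

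**Figure D1:**
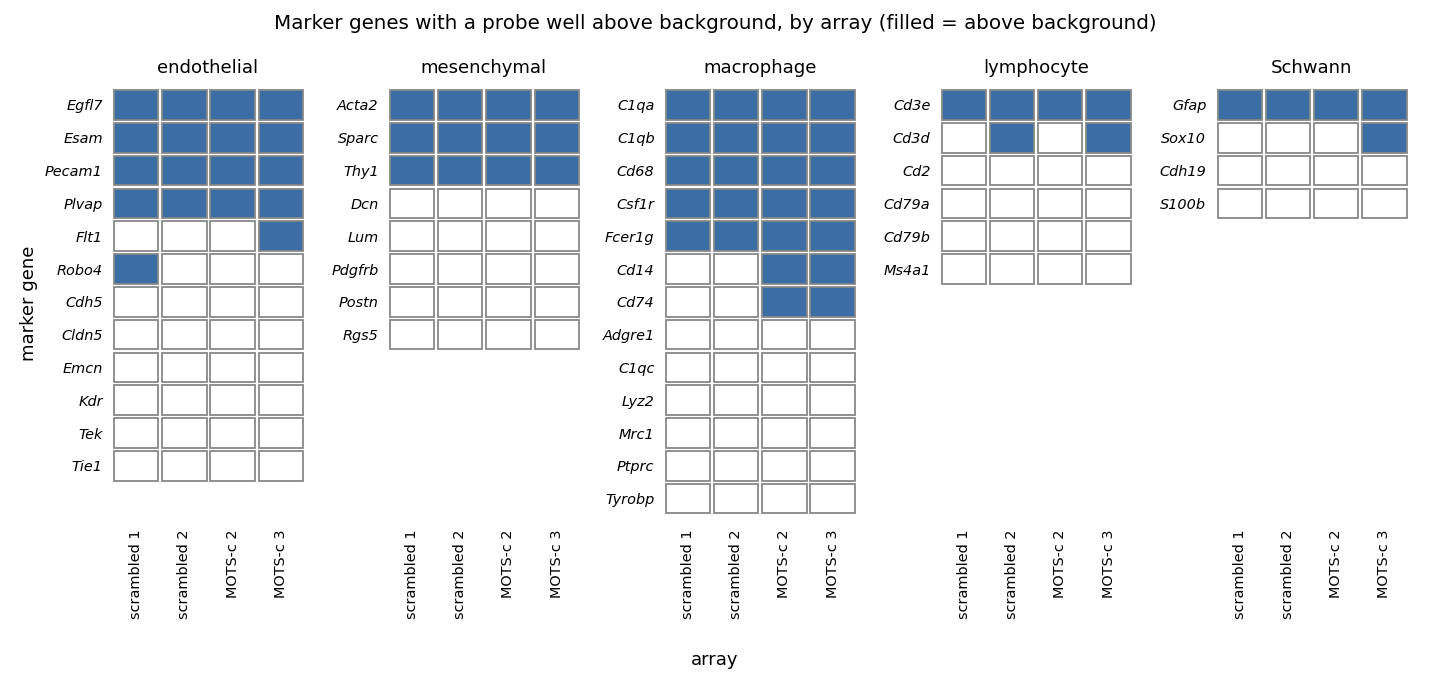
Detection of the 43 markers, with genes in rows, arrays in columns and a panel for each lineage; a filled cell means that at least 1 probe of the gene was well above background on that array. Filled rows are the minority in every lineage but the macrophages, where 7 of 13 genes have at least 2 filled cells.

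Of the endothelial markers, 4 of 12 were above background, all of them on every array. They were Pecam1 (CD31, an adhesion molecule of endothelial junctions, also carried by platelets and leukocytes), Plvap (the protein that forms the diaphragms of fenestrated capillaries), Esam (an endothelial adhesion molecule) and Egfl7 (a secreted endothelial protein, host gene of a microRNA). Robo4, an endothelial guidance receptor, passed on scrambled replicate 1 alone, and Flt1, a VEGF receptor, on MOTS-c replicate 3 alone. The defining genes Cdh5, Kdr (the main VEGF receptor), Tie1 and Tek (the angiopoietin receptor family), Emcn (a capillary sialomucin) and Cldn5 (a tight junction protein) were above background on none. Their probes read between 0.811 and 1.23 times local background. Signal in this list was therefore seen for RNA of some surface and secreted proteins. It was seen on more than 1 array for 0 of the 4 growth factor receptors Kdr, Tie1, Tek and Flt1.

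The Egfl7 probe was bright, at 104 to 125 times its local background. Its normalized log2 intensity was 12.02 and 12.17 with scrambled peptide and 12.21 and 12.11 with MOTS-c. The groups overlapped and the gene varied little.

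RefSeq start sites (build GRCm38.p6) were at hand for 24 of the 43 genes, and the 250 bases upstream of Egfl7 and of Kdr are shown because these genes are of one lineage and similar in CpG content, but only Egfl7 was above background. Each is written 5′ to 3′ on the strand of its gene with CpG dinucleotides in capitals. The Egfl7 sequence is chr2:26586386-26586635 on the plus strand, before the one of its 3 listed starts with the most CpG, and the Kdr sequence is chr5:75978456-75978705 on the minus strand.
Egfl7: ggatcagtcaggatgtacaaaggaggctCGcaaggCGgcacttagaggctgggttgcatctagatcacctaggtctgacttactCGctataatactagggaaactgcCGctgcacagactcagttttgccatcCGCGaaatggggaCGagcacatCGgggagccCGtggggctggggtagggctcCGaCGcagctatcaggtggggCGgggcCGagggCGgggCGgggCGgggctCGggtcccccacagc
Kdr: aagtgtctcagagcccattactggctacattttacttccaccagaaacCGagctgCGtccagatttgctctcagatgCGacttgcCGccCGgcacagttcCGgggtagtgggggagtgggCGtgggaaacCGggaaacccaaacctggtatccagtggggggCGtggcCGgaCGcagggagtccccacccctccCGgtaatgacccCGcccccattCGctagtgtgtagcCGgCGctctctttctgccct
The Egfl7 window held 17 CpG, more than 76.5% of all 32851 RefSeq windows of this length, and the Kdr window held 16, more than 74.6% of them. Flt1 held 23. Over the 9 genes above background that had a listed start, the count ranged from 0 (Cd3d) to 17 with a median of 4, and over the 15 others it ranged from 1 to 23, also with a median of 4, against a median of 6 over all windows. The counts of these 24 genes thus overlapped between the 2 sets, and a relation to detection was not tested. Flt1 and Robo4, above background on 1 array each, were among the others. For genes with several listed starts the one with the most CpG was taken, and 19 genes had no listed start. The sequences are given as a description of the genes, and the arrays measured nothing at these sites.

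Plvap read 10.57 and 10.98 with scrambled peptide and 10.93 and 10.64 with MOTS-c on the normalized log2 scale. Pecam1, at 2.29 to 2.93 times its local background, read 5.71 and 5.47 with scrambled and 5.60 and 5.95 with MOTS-c. For both genes the 2 groups overlapped, and the scrambled arrays differed from each other by more than the group means did. Esam was the endothelial exception. It read 8.53 and 8.54 with scrambled and 8.23 and 7.99 with MOTS-c, so each MOTS-c value was below each scrambled value. The log2 fold change of Esam was -0.43 (SE 0.14, n = 2 per group), with an unadjusted p of 0.0316 and an adjusted p of 0.578 from limma over 35087 probes.

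Of the mesenchymal markers, 3 of 8 were above background, again all of them on every array. They were Acta2 (smooth muscle actin, of pericytes, smooth muscle and activated fibroblasts), Sparc (a matrix-associated glycoprotein) and Thy1 (a surface glycoprotein of fibroblasts that neurons and T cells also carry). The matrix proteins Dcn, Lum and Postn, the PDGF receptor Pdgfrb and the pericyte regulator Rgs5 were above background on none. Acta2 rested on 1 of its 3 probes and Sparc on 1 of its 2, since the others were not above background.

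Acta2 read 12.40 and 12.26 with scrambled and 12.19 and 12.19 with MOTS-c. Both MOTS-c values lay below both scrambled values, and the log2 fold change was -0.14 (SE 0.13, adjusted p = 0.837, limma), smaller than the gap between the scrambled arrays. Sparc read 5.18 and 4.90 with scrambled and 5.58 and 5.21 with MOTS-c. Here both MOTS-c values lay above both scrambled values, MOTS-c replicate 3 only just, with a log2 fold change of 0.35 (SE 0.19, adjusted p = 0.734, limma) on a probe at 1.80 to 2.24 times its local background. With normexp background correction that value was 0.07. Thy1 read 6.82 and 7.18 with scrambled and 7.15 and 6.64 with MOTS-c, and its groups overlapped.

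The macrophage markers had the largest share of genes above background on at least 2 arrays, with 7 of 13. On all 4 arrays it was 5 of 13, close to the 3 of 8 mesenchymal and 4 of 12 endothelial genes. C1qa and C1qb (chains of complement C1q, which tissue macrophages make), Csf1r (the receptor for the macrophage growth factor), Cd68 (a lysosomal glycoprotein) and Fcer1g (the signaling chain of Fc receptors) passed on all 4 arrays. Cd14 (the co-receptor for lipopolysaccharide) and Cd74 (the invariant chain of MHC class II) passed on both MOTS-c arrays and on neither scrambled array. The 6 others, above background on none, include genes that define the lineage: Ptprc, Adgre1 (a surface receptor of mature macrophages), Lyz2 (lysozyme), Mrc1 (CD206), Tyrobp (an adaptor of myeloid receptors) and C1qc, the third chain of C1q. The probes of Adgre1, Lyz2, Tyrobp and C1qc read between 0.727 and 1.05 times local background.

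C1qa read 10.40 and 9.95 with scrambled and 9.43 and 9.58 with MOTS-c. Each MOTS-c value was again below each scrambled value, and the log2 fold change was -0.67 (SE 0.20, n = 2 per group), with an unadjusted p of 0.0212 and an adjusted p of 0.548 in limma. Without scrambled replicate 1, the highest of the 4 values, the log2 fold change was -0.45 and the gene no longer reached 1.5-fold. C1qb, its partner in the same molecule, read 5.58 and 6.02 with scrambled and 5.49 and 5.73 with MOTS-c, with overlapping groups. Its probe was at 2.03 to 3.12 times local background, its log2 fold change was -0.20 (SE 0.20, adjusted p = 0.855, limma), and the difference between the chains was not tested.

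The other macrophage genes did not follow C1qa. Csf1r read 11.22 and 11.91 with scrambled and 11.57 and 11.14 with MOTS-c through its brighter probe, and Cd68 read 8.29 and 8.86 with scrambled and 8.75 and 8.71 with MOTS-c. The groups of both overlapped, and in both the scrambled arrays were farther apart than the MOTS-c arrays. The second probe of each gene agreed in sign with the first. Fcer1g read 5.47 and 5.11 with scrambled and 5.72 and 5.35 with MOTS-c, again with overlap.

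Cd74 read 3.81 and 3.95 with scrambled and 4.25 and 4.36 with MOTS-c, and Cd14 read 3.90 and 4.06 with scrambled and 4.27 and 4.70 with MOTS-c. Both genes were higher on both MOTS-c arrays, but the scrambled values were not well above background, so only a bound can be given. With the processing used throughout, the bound was taken against the lowest signal that counted as above background on each scrambled array. It was 1.19-fold higher with MOTS-c for Cd74 (measured means 3.88 and 4.30, adjusted p = 0.563, limma) and 1.35-fold for Cd14 (means 3.98 and 4.49, adjusted p = 0.628, limma). These are dim probes, at 1.31 to 1.68 times local background for Cd74 and 1.53 to 2.00 times for Cd14, and the second Cd14 probe was not above background. With normexp background correction the fitted differences were 0.03 for Cd74 and 0.11 for Cd14 on the log2 scale. Both lie below the bounds, so the bounds depend on the processing. Both genes were also kept through their MOTS-c arrays alone, which favors a difference.

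Of the lymphocyte markers, 2 of 6 were above background. Both belong to the CD3 complex of the T cell receptor, and Cd3e passed on all 4 arrays while Cd3d passed on scrambled replicate 2 and MOTS-c replicate 3. Cd2, a T cell adhesion molecule, was above background on none, nor were the B cell genes Cd79a and Cd79b (the signaling chains of the B cell receptor) and Ms4a1 (CD20). Cd3e read 8.47 and 8.76 with scrambled and 8.59 and 8.56 with MOTS-c through its brighter probe, with overlap. Its other probe read 4.89 and 4.78 with scrambled and 5.34 and 5.30 with MOTS-c, a log2 fold change of 0.49 (SE 0.12, unadjusted p = 0.0127, adjusted p = 0.534, limma), against -0.04 on the brighter one. The probes of this gene thus disagreed. Cd3d read 3.81 and 4.43 with scrambled and 3.85 and 4.39 with MOTS-c, with 1 high and 1 low array in each group.

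Of the Schwann cell markers, only Gfap, an intermediate filament of glia, passed on more than 1 array, through 1 of its 2 probes. Sox10, the transcription factor that defines the lineage, passed on MOTS-c replicate 3 alone, and S100b (a calcium-binding protein of glia) and Cdh19 (a cadherin of Schwann cells and their precursors) on none. Gfap read 5.15 and 4.90 with scrambled and 5.23 and 5.78 with MOTS-c, on a probe at 1.68 to 2.27 times its local background. Both MOTS-c values were above both scrambled values, with MOTS-c replicate 2 close to scrambled replicate 1, and the log2 fold change was 0.48 (SE 0.23, adjusted p = 0.700, limma). It was 0.21 without MOTS-c replicate 3, 0.76 without MOTS-c replicate 2 and 0.16 with normexp background correction.

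**Figure D2:**
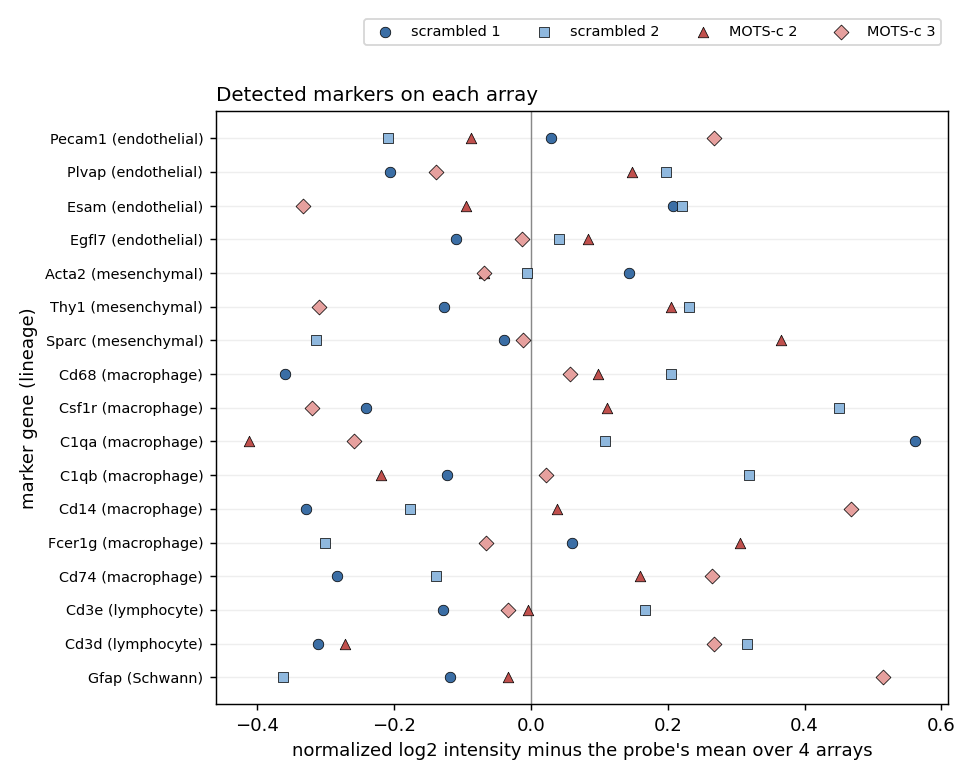
The 17 markers above background on at least 2 arrays, each through its brightest probe: the x axis is the normalized log2 intensity on each array minus the probe's mean over the 4 arrays, circles and squares are the scrambled arrays, and triangles and diamonds the MOTS-c arrays. The groups separate in 7 genes (Esam, Acta2 and C1qa lower with MOTS-c, Sparc, Cd14, Cd74 and Gfap higher) and overlap in 10.

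Over these 17 genes, no difference between MOTS-c and scrambled peptide passed the test across the array. 0 genes passed an adjusted p under 0.05 in limma, as did 0% of all 35087 probes tested, and the adjusted p-values of the 17 lay between 0.548 and 0.998. 4 genes (Esam, C1qa, Cd14 and Cd74) had an unadjusted p under 0.05, a threshold that 7.85% of all probes met. Only C1qa also reached 1.5-fold, against 3.53% of all probes, and 2.43% in its direction. The methods' t-test called 0 genes by that rule and had Cd74 alone at an unadjusted p under 0.05. The groups did not overlap in 7 genes, or 41.2%, against 38% of all probes. 3 of them were lower with MOTS-c and 4 higher, against 18.6% and 19.4% of all probes. Cd14 and Cd74 were kept through their MOTS-c arrays alone, which favors a difference, and of the 14 genes above background on all 4 arrays, 2 had an unadjusted p under 0.05 and 5 did not overlap, or 35.7%. With 2 arrays against 2, an exact two-sided permutation test of a single gene cannot give a p below 0.333.

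Endothelial, mesenchymal and macrophage genes each included both signs. The median log2 fold change was 0.04 over the 4 endothelial genes, -0.10 over the 3 mesenchymal genes, 0.16 over the 7 macrophage genes and -0.02 over the 2 lymphocyte genes, and Gfap stood alone at 0.48 for the Schwann cells, against 0.01 over all probes. The macrophage median became -0.20 when genes had to be above background on all 4 arrays, which leaves out Cd14 and Cd74. Over all 17 genes the median was 0.01 and 8 of them were below 0. In 11 of the 17 the gap between the scrambled arrays was larger than the difference between the group means, as it was for 54.3% of all probes.

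**Figure D3:**
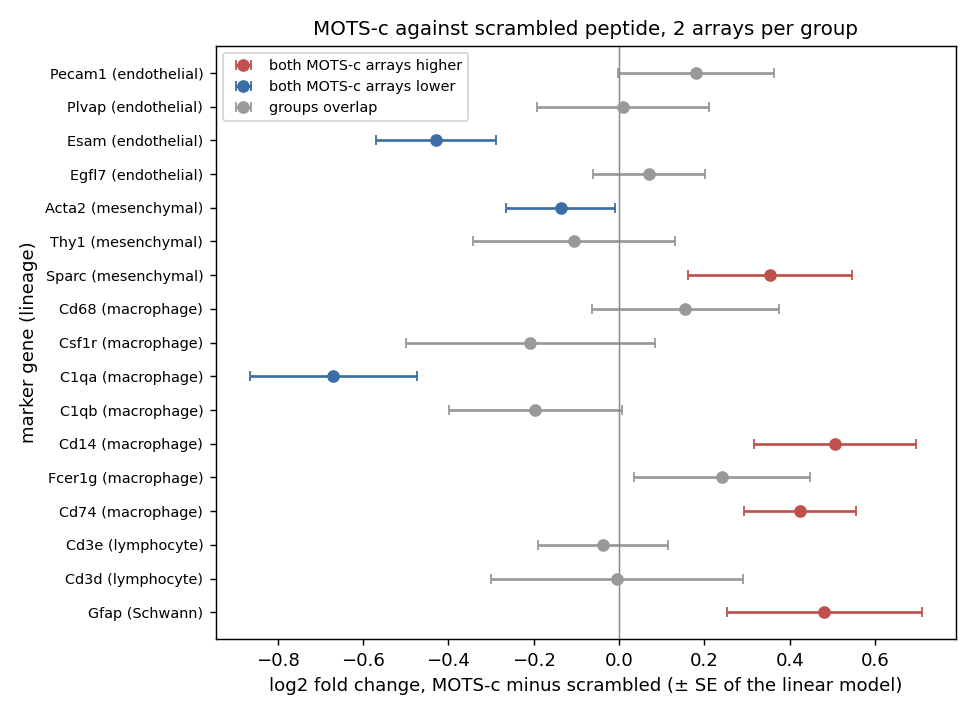
Log2 fold change of MOTS-c minus scrambled for the 17 detected markers, with points for the brightest probe, bars for the standard error of the linear model and color for whether the 2 groups of 2 arrays overlap. C1qa lies lowest at -0.67 and Cd14 highest at 0.51, and Cd14 and Cd74 were not above background on the scrambled arrays, so their points are no measured fold.

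A further 70 markers of the same lineages were read in the same way, of which 69 had a probe and 38 (55.1%) were above background on at least 2 arrays. By lineage these were 12 of 16 endothelial, 8 of 15 mesenchymal, 3 of 15 macrophage, 7 of 12 lymphocyte and 8 of 11 Schwann genes. The macrophage lineage had the largest share of genes detected among the 43 and the smallest among the further ones. There, Spi1, Cx3cr1, Trem2 and Cd163 were among the 11 above background on none.

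Of these 38 genes, 0 passed an adjusted p under 0.05 in limma and 6 had an unadjusted p under 0.05, against 7.85% of all probes. Through the brightest probe, 28 had a log2 fold change below 0, against 47.1% of all probes, with a median of -0.25. Of the 38, 3 reached 1.5-fold at an unadjusted p under 0.05, against 3.53% of all probes. All 3 were lower with MOTS-c, against 2.43% of all probes in that direction. Pdgfra (the alpha receptor for PDGF, of fibroblasts) read 6.37 and 5.76 with scrambled and 5.39 and 4.65 with MOTS-c, a log2 fold change of -1.05 (SE 0.33, adjusted p = 0.567, limma). Ngfr (the low-affinity receptor for nerve growth factor) read 12.84 and 12.81 with scrambled and 12.42 and 11.84 with MOTS-c, a log2 fold change of -0.70 (SE 0.23, adjusted p = 0.571, limma). Cd93 (a surface glycoprotein of endothelium and myeloid cells) read 5.14 and 5.83 with scrambled and 4.90 and 4.38 with MOTS-c, a log2 fold change of -0.85 (SE 0.31, adjusted p = 0.615, limma). In all 3 genes MOTS-c replicate 3 was the lowest array.

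Through their brightest probes, the further Schwann cell markers had the opposite sign to Gfap. All 8 that were above background had a log2 fold change below 0 in that probe, between -0.93 and -0.21. In 7 the MOTS-c values were both below the scrambled ones, against 18.6% of all probes. The other kept probes of Mbp went the other way, at 0.10 and 0.67, while those of L1cam were also lower, at -0.57 and -0.65. The median deviation of the 8 genes from each probe's mean was 0.26 and 0.25 in the scrambled group, -0.02 on MOTS-c replicate 2 and -0.42 on MOTS-c replicate 3, so MOTS-c replicate 3 was farthest from the rest. Several genes of this list, Gap43, L1cam and Ngfr among them, are also used by neurons and other cells, and Sox10 and S100b were not above background on the same arrays, apart from Sox10 on MOTS-c replicate 3.

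**Figure D4:**
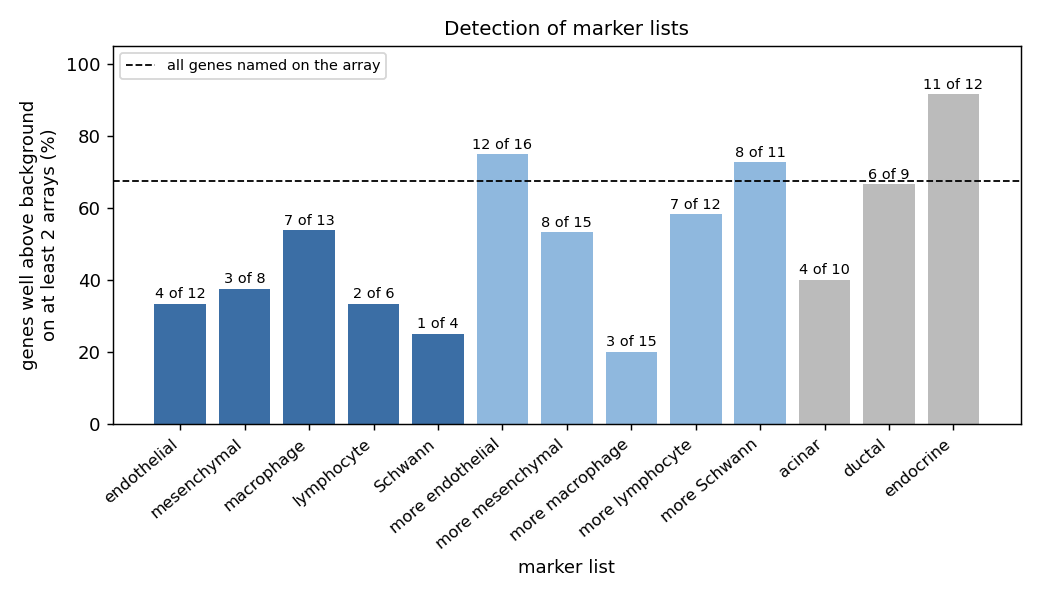
Share of each marker list well above background on at least 2 arrays, in percent of genes with a probe, with the counts above the bars: dark bars are the 43 genes by lineage, light bars the further markers of the same lineages and gray bars other pancreas cells, and the dashed line is the 67.5% of all genes named on the array. Every dark bar lies below the line, and the endocrine list is highest with 11 of 12 genes.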

How the data were processed

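RNA was amplified, labeled with Cy3 and hybridized to Agilent mouse arrays, and Feature Extraction (version 11.0.1.1 per the file headers) read the spots. The intensity values the authors deposited are corrected for background within each array and are not normalized between arrays. The study's methods filtered probes on a Flag A that they do not define. Here, 3671 control spots per array and 96 to 131 outlier spots were removed, log2 was taken, replicate spots were averaged, probes well above background (the flag of Feature Extraction) on at least 2 arrays were kept, whatever the group, and quantile normalization followed. limma (version 3.58.1, R 4.3.3) compared the groups over 35087 probes with Benjamini-Hochberg adjustment and 2 residual degrees of freedom. A gene was followed through its brightest kept probe, and a fold change is given where the groups did not overlap or, for the further markers, at an unadjusted p under 0.05 with 1.5-fold. The second probe of Cd3e and the other probes of Mbp, whose signs disagreed, are given beyond this rule, as are the other L1cam probes and the C1qb fold change. They were chosen after their values were seen. Lineage medians use all kept genes. Some genes under this rule are left out of the text. Symbols came from the accessions in the files through a RefSeq table of assembly GRCm38.p6. The marker genes, the lists and the tests were chosen with earlier results of these data known. Alternatives were no filter, a filter on all 4 arrays, a 75th percentile shift, normexp background correction (offset 50), the authors' rounded intensity values, a trend in limma, the methods' t-test, the average of a gene's probes, and leaving out each array. Of these steps, only the limma comparison was tested on simulated data, drawn around the normalized values of the probes. The filter and the normalization were not simulated. The number of arrays limits the precision.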

Additional observations from a re-analysis of the deposited data

How the results depend on the processing

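The count of genes at an adjusted p under 0.05 was 0 under every alternative. The 7 genes whose groups did not overlap kept their direction in all 78 values computed under the alternatives, 24 of them without 1 array. This was largely fixed in advance. Where groups do not overlap, leaving out 1 array cannot reverse the sign unless renormalization does. The t-test and the trend reuse the same fold changes. Cd14 and Cd74 have no value under the strict filter or without a MOTS-c array. Dim genes shrank (Cd74 to 0.03 and Sparc to 0.07 on the log2 scale with normexp). The count at an unadjusted p under 0.05 and 1.5-fold, 1 gene (C1qa), became 2 with no filter on dim probes, against 1736 of 56605 probes. There Cd79a, not above background, joined C1qa. With the methods' t-test the count was 0, against 457 of 35084 probes. Without 1 array it was 0 to 1: 0 without scrambled replicate 1, and Gfap in place of C1qa without MOTS-c replicate 2. The count without overlap, 7, was 18 of 43 genes with no filter, against 21525 of 56605 probes. Without 1 array it was 8 to 16 of the 14 to 17 genes kept, where a group of 1 overlaps less by construction. Over all probes it was then 22260 to 26079 of 34225 to 34810. The macrophage median was -0.20 with the strict filter, and the Schwann value 0.16 with normexp. Without 1 array the medians ranged from -0.10 to 0.10 (endothelial), -0.13 to 0.14 (macrophage), -0.14 to 0.15 (mesenchymal), -0.27 to 0.14 (lymphocyte) and 0.21 to 0.76 (Schwann). The sign of the first 4 changed with the array left out. These fits kept 14 to 17 genes, so the medians do not all cover the same genes. With the looser flag for a positive and significant signal, 30 of 43 genes were detected in place of 17. With the stricter flag required on all 4 arrays, 14 were. In fits without 1 array, the lone array of a group is assumed to vary like the other group. The causes of these shifts were not tested beyond the construction named. No paired analysis was possible because the groups share only replicate number 2.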

Other observations

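Markers of the exocrine pancreas were read beside the islet lineages. Of 10 acinar genes, 4 were well above background on at least 2 arrays, and of 9 ductal genes, 6 were, while Pnlip, Cpb1, Rbpjl, Krt19, Sox9 and Cftr were above background on none. The acinar enzyme Cela1 (an elastase) was lower on both MOTS-c arrays. It read 11.77 and 11.90 with scrambled and 11.23 and 10.92 with MOTS-c, a log2 fold change of -0.76 (SE 0.16, unadjusted p = 0.00649, adjusted p = 0.499, limma). The keratin Krt18, of ductal and other epithelia, read 10.84 and 10.94 with scrambled and 10.45 and 10.09 with MOTS-c, a log2 fold change of -0.62 (SE 0.17, adjusted p = 0.539, limma). In both genes MOTS-c replicate 3 was the lowest array, as it was in Pdgfra, Ngfr and Cd93.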
